A study of Mus musculus with 14 samples.

Results

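Peritoneal macrophages of BALB/c mice without the IL-4 receptor were compared after elicitation with a nematode and after elicitation with thioglycollate. The comparison took the 7 of the series' 14 arrays that carry receptor knockout RNA, 4 of nematode-elicited and 3 of thioglycollate-elicited cells, and all 343 probes named for mouse miRNAs among 1309 named miRNA probes on an array. The thioglycollate group came from IL-4 receptor knockout mice 3 days after an intraperitoneal injection of thioglycollate, a sterile irritant that draws in inflammatory macrophages. The nematode group came from IL-4 receptor knockout mice 21 days after Brugia malayi, a filarial worm, was implanted in the peritoneal cavity. Both groups share the strain, the receptor knockout and the culture step, in which cells were left to adhere to plastic for 4 hours. The labels do not say which receptor chain was deleted or whether replicates came from separate mice, so the p-values reflect the spread among these RNA samples alone, and that spread may be technical. Elicitation and time since elicitation cannot be told apart. The remaining 7 arrays, of wild type cells elicited in the same 2 ways (4 nematode, 3 thioglycollate), entered the estimate of the spread and the test of the difference between genotypes.

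IL-4 and IL-13, released during worm infection, act through receptors that contain the IL-4 receptor alpha chain and switch macrophages to alternative activation. Without the receptor, macrophages still enter the worm-exposed cavity but cannot receive that signal. A miRNA is a short RNA that pairs with messenger RNAs, mostly through its seed (bases 2 to 8), and lowers their translation and stability. miRNAs with the same seed share many predicted targets.

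The sequences below are those of some of the miRNAs on which the results turn, with relatives that share a seed, so that shared seeds can be set beside the values. They are RefSeq mature sequences (GRCm38.p6), written 5′ to 3′ with the seed in capitals. Current arm names were assigned to the array's older names by hand. Of 25 array names looked up, 19 matched. The first 3 share the seed GGCAGUG of the miR-34 family.
miR-34a: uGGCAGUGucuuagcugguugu
miR-34b: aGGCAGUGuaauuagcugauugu
miR-449: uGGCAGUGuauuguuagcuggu
The next 2 share the seed GCUACAU.
miR-221: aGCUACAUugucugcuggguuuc
miR-222: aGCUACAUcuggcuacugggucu
The last 3 each have a seed of their own among the miRNAs matched.
miR-551b: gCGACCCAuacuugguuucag
miR-223: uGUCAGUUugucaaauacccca
miR-140*: uACCACAGgguagaaccacgg
miR-34c, miR-150, miR-689, miR-140, miR-23b and miR-714 are given by name.

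Mature miR-34a lies at chr4:150068473-150068494 on the plus strand, and no other annotated gene spans its precursor. miR-222 (chrX:19146901-19146923) and miR-221 (chrX:19146307-19146329) lie on the minus strand, their precursors separated by 504 bases, again with no other annotated gene spanning them. miR-551b (chr3:29416879-29416899, plus strand) lies within the span of the protein-coding gene Egfem1, and miR-140* (chr8:107551288-107551308, plus strand) within that of Wwp2. The Mir150 precursor lies at chr7:45121757-45121821.

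On the 7 knockout arrays the median net signal (foreground minus local background) of mouse spots was 18.0 to 25.8 intensity units, and that of blank and negative control spots 6.95 to 9.18. Each array correlated with the mean of the rest of its group at r of 0.936 to 0.977. Nematode wild type replicate 4 stood apart, with an r of 0.835. A probe counted as above blank spots where the median of its 3 spots exceeded the 95th percentile of blank and negative control spots of that array, a percentile that ran from 15.0 to 62.6 units over the knockout arrays. By that rule 127 of 343 probes stood above blank spots on at least 3 of the 7 arrays, 58 on all 7 and 71 on none. The array holds no probe for the receptor's mRNA or for the messenger RNAs that mark alternative activation, so neither the knockout nor the activation state could be checked. Of the 3 haematopoietic markers, miR-223 and miR-142-3p stood above blank spots on all 7 arrays and miR-142-5p on 6. No slide held both knockout groups, since the thioglycollate arrays lay on slides 12 and 14 and the nematode arrays on slides 15 and 6, so slide and elicitation cannot be told apart here.

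In the absence of the receptor, nematode elicitation went with higher levels of 3 miRNAs and lower levels of 2 relative to thioglycollate, which is 1.46% of the 343 probes (limma, Benjamini-Hochberg adjusted p under 0.05). miR-34a, a transcriptional target of p53 that restrains cell division, and miR-222, which represses the cell cycle inhibitor p27, fell. miR-150, a miRNA of mature lymphocytes, miR-689 and miR-551b rose. Values are log2 of the background-corrected, quantile-normalized intensity, and a log2 fold change is the nematode minus the thioglycollate mean. Over all probes the median log2 fold change was -0.04, with quartiles of -0.17 and 0.07, and 33 probes had an unadjusted p under 0.05. The count of 5 was 3 without thioglycollate KO replicate 1 or nematode KO replicate 2. It was 8 when nematode wild type replicate 4 was left out. A fit on the 7 knockout arrays alone called 11, and it kept miR-34a, miR-222, miR-150 and miR-689.

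**Figure D1:**
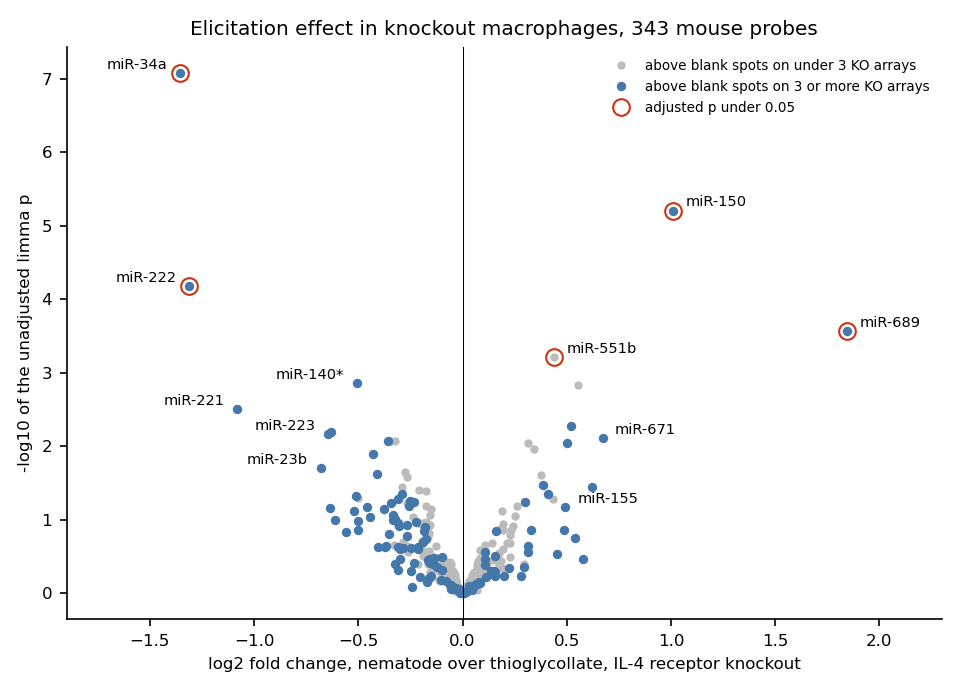
Each point is 1 of 343 mouse probes, placed by its log2 fold change (nematode over thioglycollate, IL-4 receptor knockout) and the -log10 of its unadjusted limma p; rings mark the 5 probes past the adjusted threshold. miR-34a (-1.35) and miR-222 (-1.31) stand out to the left, miR-689 (1.85) and miR-150 (1.01) to the right, and miR-551b is the 1 ringed point among probes that did not rise above blank spots on at least 3 arrays.

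miR-34a was the miRNA with the smallest p. Its log2 intensity was 7.47, 7.38 and 7.79 on the thioglycollate KO arrays, and 6.37, 5.92, 6.32 and 6.17 on the nematode KO arrays. The groups did not overlap, and the gap between them was wider than the spread within either. All 9 of its spots on the thioglycollate arrays gave a net signal between 103 and 201 units, whereas the 12 on the nematode arrays lay between 8.68 and 43.9. The median of its spots was above blank spots on 3 of 3 thioglycollate and 0 of 4 nematode arrays, so its fall has only a bound and was at least 2.28-fold (measured log2 fold change -1.35, SE 0.12, limma adjusted p = 2.87e-05). By the mean of its spots it was above blank spots on 1 nematode array. With plain subtraction of the background the measured log2 fold change was -2.70.

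The other members of the miR-34 family gave no comparable signal. miR-34b (-0.12, SE 0.12) and miR-34c (-0.08, SE 0.10), which are made from a separate precursor cluster, and miR-449 (0.19, SE 0.20), which carries the same seed, each had a limma adjusted p of 0.843. miR-34b and miR-34c stood above blank spots on 1 of 7 arrays and miR-449 on 2. In the list of miR-34 and other p53-linked miRNAs, 1 of 8 measured members fell, miR-34a, and 6 were negative, with a list median of -0.10. Over all 343 probes 2 fell, 3 rose and 202 were negative (58.9%), with a median of -0.04. miR-107, the other member above blank spots on at least 3 arrays, gave -0.22 (SE 0.13, adjusted p = 0.586), and its groups did not overlap.

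miR-222 was 2.48-fold lower after nematode elicitation. Its log2 intensity was 9.46 on each of the 3 thioglycollate KO arrays, since it took the same rank on all of them and quantile normalization then gives 1 value. On the nematode KO arrays it was 7.99, 7.97, 8.07 and 8.55, all below the thioglycollate value (log2 fold change -1.31, SE 0.22, limma adjusted p = 0.00764). Before normalization its spots showed the same separation, with net signals of 698 to 926 units on thioglycollate and 200.4 to 373 on nematode arrays.

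miR-221, the neighbour of miR-222 with the same seed, was lower by a similar amount but did not pass. Its log2 intensity was 8.28, 8.10 and 8.68 on thioglycollate KO arrays and 7.23, 6.83, 7.30 and 7.73 on nematode KO arrays, without overlap. Its log2 fold change was -1.08 (SE 0.30, 95% confidence interval -1.72 to -0.44, limma adjusted p = 0.135). It passed when nematode wild type replicate 4 was left out, in the fit on the 7 knockout arrays alone and with cyclic loess normalization.

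miR-150 was 2.02-fold higher after nematode elicitation by its measured means, with 1 of the 3 thioglycollate arrays above blank spots. Its log2 intensity was 6.15, 6.33 and 6.17 on thioglycollate KO arrays and 7.03, 7.03, 7.42 and 7.42 on nematode KO arrays (log2 fold change 1.01, SE 0.14, limma adjusted p = 0.00107). The 2 groups were far apart, and every nematode spot (68.8 to 178 units) lay above every thioglycollate spot (14.6 to 36.6 units). It exceeded the blank percentile on all 4 nematode arrays. With plain subtraction of the background in place of the correction that adds an offset, its log2 fold change was 2.11.

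miR-150 is also a marker of lymphocytes, of which an adherent preparation stated as more than 80% pure may hold some. Of the 5 measured lymphocyte miRNAs, 1 rose, miR-150, and 0 fell, with a list median of -0.03. Of all 343 probes 3 rose and 2 fell, with a median of -0.04. miR-342, abundant in lymphoid cells, gave -0.41 (SE 0.16, limma adjusted p = 0.363), with values of 6.72, 7.0 and 7.0 against 6.54, 6.41, 6.57 and 6.45. miR-181a gave 0.05 (SE 0.12) and miR-181b -0.03 (SE 0.09). They stood above blank spots on 2 and 1 of the 7 arrays, and miR-181c on 0. Only miR-150 and miR-342 did so on at least 3 arrays. The values near 0 and the list median thus come from probes near background, and cannot show whether those miRNAs changed. The net signal summed over miR-150, miR-342, miR-181a and miR-181b was 121 to 161 units on thioglycollate KO and 159 to 251 on nematode KO arrays. Without miR-150 the sum was 95.0 to 128 on thioglycollate and 63.3 to 97.0 on nematode arrays. That sum joins miR-342 with miR-181a and miR-181b, which were mostly not above blank spots. Both sums are in units before normalization. In bulk RNA, more cells of a type and more of a miRNA per cell cannot be told apart, and the part of lymphocytes in the miR-150 result was not tested.

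miR-689 showed the largest log2 fold change of the 343 probes. It was 3.60-fold higher after nematode elicitation, at 7.62, 7.99 and 8.39 on thioglycollate KO arrays against 9.78, 10.39, 9.90 and 9.31 on nematode KO arrays (log2 fold change 1.85, SE 0.37, limma adjusted p = 0.0231). The groups did not overlap, with spots of 115 to 320 units against 393 to 1298 units. The call ended without thioglycollate KO replicate 1 (adjusted p = 0.165) or 2 (0.0878), without nematode KO replicate 1 (0.0540) or 2 (0.0680), and with median scaling (0.0517), while its log2 fold change stayed between 1.62 and 2.11 in all alternatives run.

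miR-551b rose only slightly, at 5.95, 5.88 and 5.92 on thioglycollate KO arrays and 6.51, 6.27, 6.17 and 6.49 on nematode KO arrays (log2 fold change 0.44, SE 0.10, limma adjusted p = 0.0422). The groups did not overlap, but by the median of its spots it was not above blank spots on any of the 7 arrays, so no fold is given. Its spots were uneven. On nematode KO replicate 1 they gave 14.2, 15.0 and 137 units, and on replicate 4 they gave 12.9, 20.4 and 83.6. With the median in place of the mean of the spots its log2 fold change was 0.24 and its adjusted p 0.416, with plain subtraction it was 1.44, and the call also ended without any 1 of 11 of the 14 arrays.

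**Figure D2:**
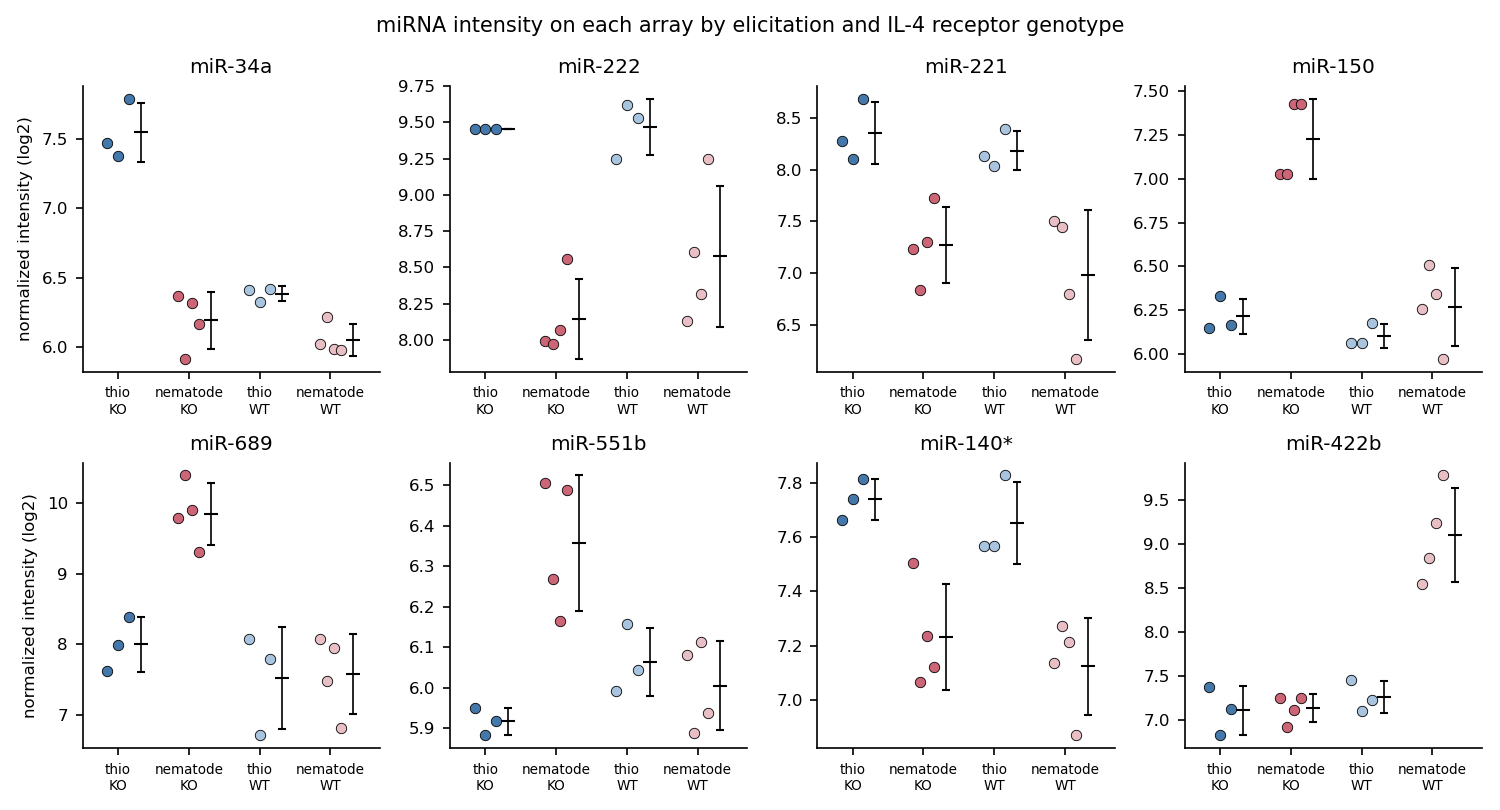
Log2 normalized intensity of 8 miRNAs on each array (points) of the 4 groups, with the group mean and SD beside them; thio stands for thioglycollate, KO for IL-4 receptor knockout and WT for wild type, and each panel has its own axis, which does not start at 0. In knockout cells miR-34a, miR-222, miR-221 and miR-140* lie lower after nematode elicitation and miR-150, miR-689 and miR-551b higher, while miR-422b overlaps (7.38, 6.83 and 7.13 against 7.26, 6.92, 7.12 and 7.26).

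**Figure D3:**
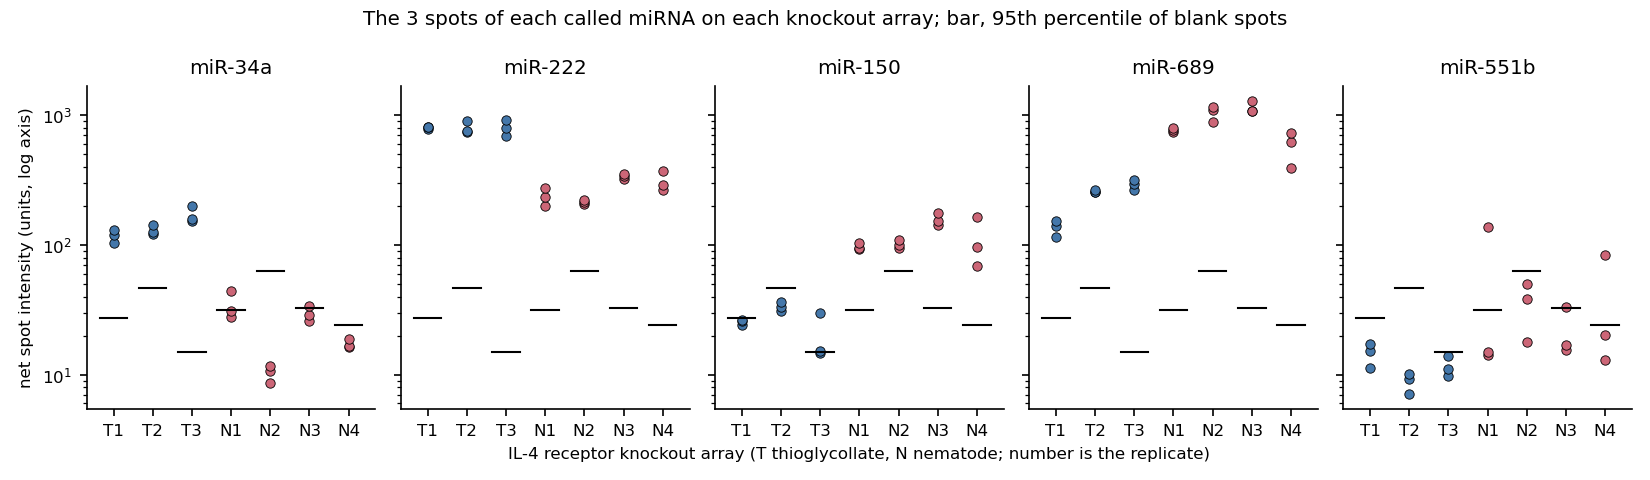
Net intensity of the 3 spots of each called miRNA on the 3 thioglycollate (T) and 4 nematode (N) knockout arrays on a log axis, with a bar at the 95th percentile of blank and negative control spots of that array. Spots of miR-222 and miR-689 lie above the bar on every array, those of miR-34a only on the thioglycollate arrays and, for some spots, on nematode replicates 1 and 3, and those of miR-551b straddle it or lie below.

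Beyond the called miRNAs, the 2 groups did not overlap for 54 probes, 15.7% of 343, with 37 lower after nematode elicitation (10.8%) and 17 higher (4.96%). Among the 127 probes above blank spots on at least 3 arrays, 31 did not overlap (24.4%), 23 of them lower and 8 higher. The 127 were picked over both groups together, so a probe could enter through its brighter group alone. miR-34a did so, above blank spots on 3 of 3 thioglycollate and 0 of 4 nematode arrays. Such entry favours groups that do not overlap, so the 24.4% cannot be compared with the 15.7%. Of the 31, 4 passed the test (miR-34a, miR-222, miR-150 and miR-689), and the values below did not.

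The closest to the threshold on the lower side was miR-140*, the other arm of the miR-140 precursor. It was at 7.67, 7.74 and 7.82 on thioglycollate KO and 7.50, 7.07, 7.23 and 7.12 on nematode KO arrays (log2 fold change -0.51, SE 0.12, limma adjusted p = 0.0715). It passed when nematode KO replicate 1 or nematode wild type replicate 4 was left out. miR-223, a miRNA of granulocytes and monocytes, gave 10.72, 10.20 and 9.96 against 9.53, 9.78, 9.38 and 9.90 (log2 fold change -0.65, SE 0.20, adjusted p = 0.184). All 4 nematode values lay below the lowest thioglycollate value, by a narrow margin, and it passed with median scaling (-1.05) and with no normalization (-1.07). Without thioglycollate KO replicate 1 it was -0.43. Without overlap and not past the threshold were also miR-23b (-0.68, SE 0.26), miR-467* (-0.63, SE 0.19), miR-500 (-0.52, SE 0.27), miR-29a, which represses collagens (-0.51, SE 0.23), miR-30a-5p (-0.50, SE 0.32), miR-489 (-0.50, SE 0.29) and miR-652 (-0.46, SE 0.23). Their adjusted p ran from 0.184 to 0.594. With miR-125b, miR-342 and miR-107, described with their lists, that leaves 8 lower miRNAs, whose log2 fold changes lay between -0.36 and -0.19.

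On the higher side 6 further miRNAs above blank spots did not overlap. miR-671, which lies within the span of Chpf2, gave 8.24, 8.17 and 8.13 on thioglycollate KO and 8.55, 9.04, 9.06 and 8.75 on nematode KO arrays (log2 fold change 0.67, SE 0.21, limma adjusted p = 0.184). The shared probe of miR-291a-5p and miR-291b-5p gave 0.52 (SE 0.16, adjusted p = 0.184), and miR-714 gave 0.50 (SE 0.16, adjusted p = 0.184). miR-155, induced by Toll-like receptor ligands and interferons, was at 6.54, 6.65 and 6.59 against 7.12, 7.04, 7.26 and 6.93 (log2 fold change 0.49, SE 0.25, adjusted p = 0.513). Its nematode values were all higher and close together, and it passed in the fit on the 7 knockout arrays alone (adjusted p = 0.0397), which leaves out the wider spread of the wild type arrays. miR-191 gave 0.49 (SE 0.31) and let-7c 0.32 (SE 0.28).

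Lists of miRNAs with a shared role or origin were described by their members' values. In the list of miRNAs induced by or acting on Toll-like receptor and NF-kB signalling, 1 of 13 fell, miR-222, 0 rose, and 8 were negative, with a median of -0.10. Of all 343 probes 2 fell, 3 rose and 58.9% were negative, with a median of -0.04. miR-146, a brake on Toll-like receptor signalling, gave -0.19 (SE 0.12, limma adjusted p = 0.599), with overlapping groups at 7.03, 6.85 and 6.84 against 6.65, 6.63, 6.73 and 6.88. miR-21, which dampens inflammatory output through Pdcd4, gave -0.38 (SE 0.19, adjusted p = 0.516). It held the top rank on all 3 thioglycollate arrays, where its normalized value is 12.37 by construction.

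In the myeloid list, 0 of 11 members passed and 10 were negative, with a median of -0.31. In wild type cells 10 were also negative, with a median of -0.43. Over all 343 probes 184 were negative in wild type cells, with a median of -0.02. Over all 343 probes 202 were negative in knockout cells (58.9%), and over the 127 above blank spots on at least 3 arrays 82 were (64.6%). The median was -0.04 over all probes and -0.14 over the 127 above blank spots on at least 3 arrays, as 9 of these 11 were. In the list of the miR-23a and miR-23b clusters (miR-23, miR-27 and miR-24), 0 of 6 passed and 6 were negative, with a median of -0.51, and these clusters share 3 members with the myeloid list. miR-23a gave -0.61 (SE 0.34), miR-24 -0.64 (SE 0.32) and miR-27b -0.41 (SE 0.32), each with overlapping groups. The median of this list was -0.53 in wild type cells, where 6 of 6 were also negative. miR-142-3p (0.01, SE 0.50), miR-142-5p (-0.01, SE 0.62) and miR-22 (-0.44, SE 0.24) overlapped between the groups. The values of miR-142-5p on nematode arrays spread from 7.16 to 10.58, so a change of the size of that of miR-34a would not have been detectable for it.

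The miRNAs numbered miR-669 to miR-721 include many described first in mouse, and for most of them a role is not established. Of 47 such probes, 1 rose, miR-689, 0 fell, and the median was 0.02. Of all 343 probes 3 rose and 2 fell, with a median of -0.04. Without overlap, 7 of the 47 were higher and 3 lower, against 17 and 37 of the 343. Above blank spots on at least 3 arrays were 17 of the 47 and 127 of the 343. miR-705 (0.58, SE 0.58) and miR-706 (0.54, SE 0.37) were positive with overlapping groups.

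Other families had 0 members past the threshold. The miR-17-92 cluster and its paralogs, linked to proliferation, had a median of -0.03 over 14 probes, with miR-106b at 0.31 (SE 0.24), miR-19b at -0.31 (SE 0.18), miR-18 at -0.27 (SE 0.18) and miR-19a at -0.25 (SE 0.20). The let-7 family, which rises as cells differentiate, had a median of -0.10 over 9, with let-7i at -0.31 (SE 0.44), let-7d at -0.29 (SE 0.23) and let-7b at 0.20 (SE 0.35). The miR-15/16 family had a median of -0.20 over 8. Its members with the seed AGCAGCA differed in sign, with miR-16 at 0.39 (SE 0.16) and miR-195 at -0.34 (SE 0.17), and miR-15a gave -0.32 (SE 0.37) and miR-15b -0.30 (SE 0.31). The miR-30 family had a median of -0.08 over 7, with miR-30c at 0.30 (SE 0.37), miR-30d at -0.25 (SE 0.35) and miR-30e at -0.17 (SE 0.42). The miR-29, miR-26 and miR-101 families had a median of -0.14 over 7, with miR-29b at -0.56 (SE 0.36), miR-26b at -0.16 (SE 0.17) and miR-29c at -0.14 (SE 0.15).

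In the clusters of miR-99, miR-100 and miR-125, 0 of 5 passed, with a median of -0.03. miR-125b, at 7.30, 6.93 and 6.97 on thioglycollate KO and 6.47, 6.68, 6.70 and 6.70 on nematode KO arrays, did not overlap (log2 fold change -0.43, SE 0.15, limma adjusted p = 0.231). Its relative miR-125a, which has the same seed, CCCUGAG, gave 0.05 (SE 0.20), and miR-99b gave 0.11 (SE 0.11).

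**Figure D4:**
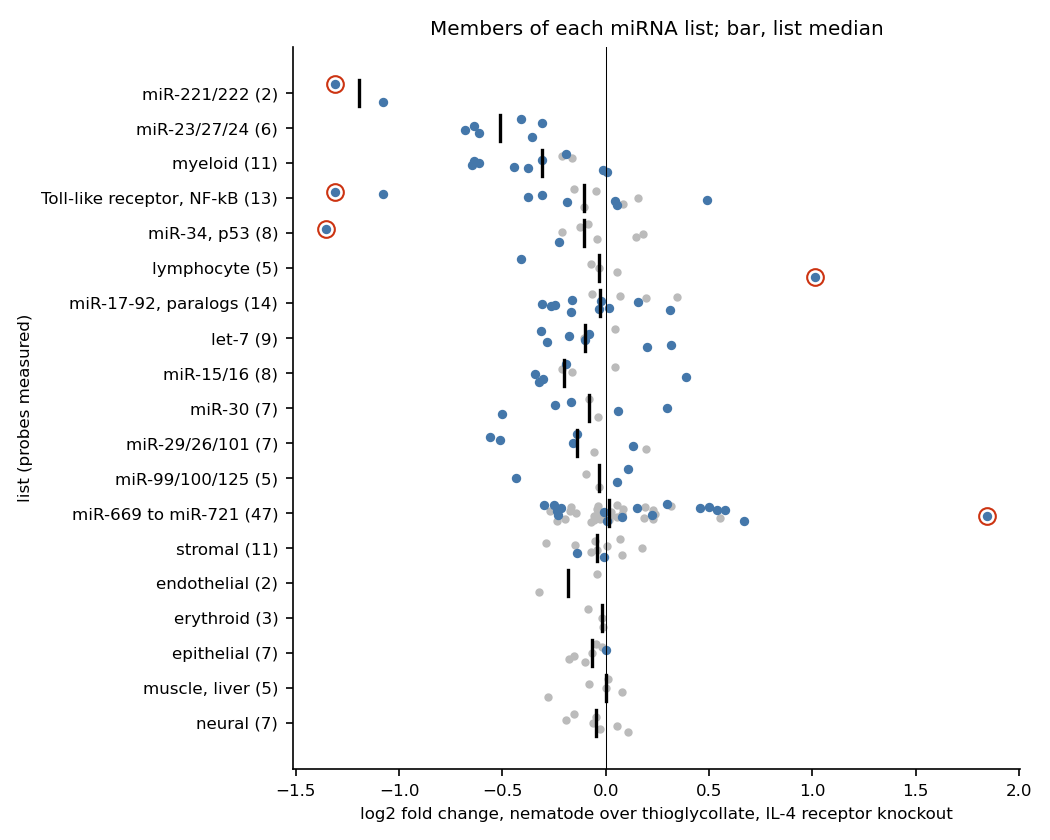
Log2 fold change (nematode over thioglycollate, IL-4 receptor knockout) of each measured member of 19 lists, with a bar at the list median; blue points stood above blank spots on at least 3 of the 7 arrays, grey points did not, and rings mark the adjusted p under 0.05. The pair of miR-221 and miR-222 (median -1.20), the miR-23/27/24 clusters (-0.51) and the myeloid list (-0.31) lie furthest to the left, and most other medians lie near 0.

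Markers of cells other than macrophages were mostly not above blank spots. In the stromal list 0 of 11 passed (median -0.04), with miR-199b at -0.29 (SE 0.21), miR-127 at -0.14 (SE 0.14) and miR-10a at -0.01 (SE 0.14), and 2 of 11 stood above blank spots on at least 3 arrays. That count was 1 of 7 for epithelial miRNAs, where miR-203 gave 0.00 (SE 0.16), and 0 for the 2 endothelial, 3 erythroid, 5 muscle and liver and 7 neural miRNAs. The list medians were -0.07, -0.18, -0.02, 0.00 and -0.05 in that order, and 0 members of these 5 lists passed. The net signal summed over miR-126-3p and miR-126-5p of endothelial cells was 40.2 to 52.8 units on thioglycollate KO and 22.0 to 42.0 on nematode KO arrays. For the erythroid miR-451 and miR-144 the sums were 25 to 34.8 and 26.5 to 32.6 units. They were 79.3 to 120 and 62.9 to 85.7 for 5 of the stromal miRNAs, and 107 to 145 and 73.1 to 111 for 5 epithelial ones. Sums over 3 muscle and liver miRNAs were 58.1 to 77.6 and 44 to 70.7. Those over the 3 haematopoietic markers were 3524 to 5194 and 1543 to 4154. The ranges of the groups overlapped in each set, and all sums are in units before normalization.

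The same elicitation contrast in wild type cells, which shares no array with the knockout contrast, called 3 miRNAs (0.875% of 343). Among them were miR-146 (log2 fold change -0.76, limma adjusted p = 0.00504) and miR-342 (-0.81, adjusted p = 0.0297), which did not pass in knockout cells. The difference between the genotypes was tested as an interaction, which neither passed (0.57 and 0.39, limma adjusted p = 0.217 and 0.904). In that test 2 miRNAs passed (0.583%), and 23 had an unadjusted p under 0.05. miR-34a fell further in knockout cells, by 1.02 on the log2 scale (SE 0.18, 95% confidence interval -1.40 to -0.64, limma adjusted p = 0.0224). Its wild type values were 6.41, 6.33 and 6.42 after thioglycollate and 6.03, 6.22, 5.99 and 5.98 after nematode elicitation, a log2 fold change of -0.33 (adjusted p = 0.394). The thioglycollate knockout arrays were thus the 1 group of 4 with miR-34a values above 7, and on the wild type arrays it was above blank spots on 1 of 3 thioglycollate and 1 of 4 nematode arrays.

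miR-422b, the array's name for miR-378, whose precursor is encoded within the coactivator gene Ppargc1b, was the other. Its log2 fold change was 0.03 in knockout cells (SE 0.24, 95% confidence interval -0.49 to 0.54) and 1.84 in wild type cells, where the nematode arrays read 8.55, 8.85, 9.25 and 9.78. The interaction was -1.82 (SE 0.34, 95% confidence interval -2.54 to -1.09, limma adjusted p = 0.0224). The probe named miR-378 on the array, for the other arm, gave -0.11 in knockout cells (SE 0.12) and was not above blank spots on any of the 7 arrays. Both interaction calls ended with plain subtraction of the background, with no background correction and without 5 single arrays. These were thioglycollate wild type replicates 2 and 3, thioglycollate KO replicates 1 and 3 and nematode wild type replicate 3. The miR-422b call also ended with trend and robust eBayes and without any 1 of nematode KO replicates 1, 2 and 3. Without nematode wild type replicate 4 the test called 7, with miR-34a and miR-422b among them.

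For the other called miRNAs the difference between genotypes did not pass. miR-150 had a log2 fold change of 0.17 in wild type cells, with overlapping groups, and an interaction of 0.84 (SE 0.19, 95% confidence interval 0.42 to 1.26, limma adjusted p = 0.0935). miR-689 had 0.05 in wild type cells and an interaction of 1.79 (SE 0.52, adjusted p = 0.217), and miR-551b had -0.06 and 0.50 (SE 0.14, adjusted p = 0.211). miR-222 gave -0.89 in wild type cells (limma adjusted p = 0.0732), where the groups met only in a tie, which counted as overlap. Nematode wild type replicate 4 and thioglycollate wild type replicate 1 both read 9.25. Before normalization all its nematode wild type spots (204 to 396 units) lay below all its thioglycollate wild type spots (466 to 808). The interaction of miR-222 was -0.42 (SE 0.32, 95% confidence interval -1.11 to 0.27, adjusted p = 0.904). miR-221 gave -1.21 in wild type cells and an interaction of 0.13 (SE 0.42), and miR-140* gave -0.53 and 0.02 (SE 0.18). miR-223 had the opposite sign in wild type cells (0.36), with an interaction of -1.01 (SE 0.28, adjusted p = 0.211). Of the 23 miRNAs above blank spots that were lower without overlap in knockout cells, 6 were also lower without overlap in wild type cells (miR-34a, miR-140*, miR-221, miR-467*, miR-342 and miR-107), and of the 8 that were higher, 0 were. Over all 127 probes above blank spots on at least 3 KO arrays, 12 (9.45%) were lower and 1 (0.787%) was higher without overlap in wild type cells.

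**Figure D5:**
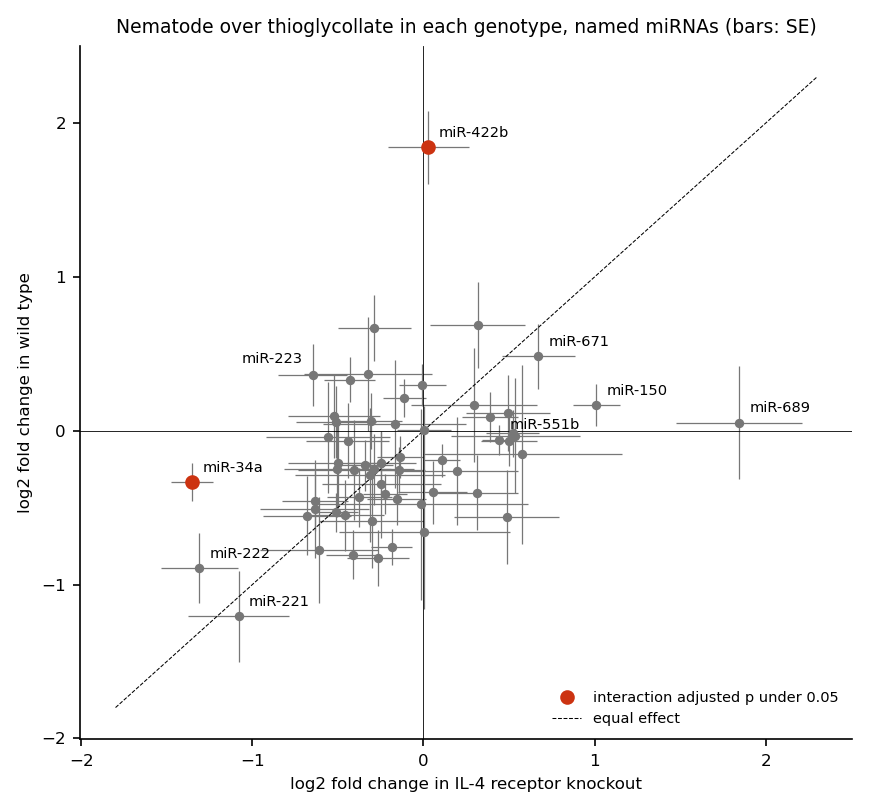
Log2 fold change (nematode over thioglycollate) of the named miRNAs in IL-4 receptor knockout cells (x axis) against wild type cells (y axis), with SE bars and a dashed line of equal effect; red points passed the interaction test. miR-422b lies high on the wild type axis at 0.03 on the knockout axis, miR-150 and miR-689 lie near 0 and miR-34a at -0.33 on the wild type axis, and miR-221 and miR-222 lie near the dashed line.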

How the data were processed

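Total RNA labelled with Hy3 was hybridised to 1-colour miRCURY LNA arrays, 2 per slide. The deposited slide files hold foreground intensity per spot on a linear scale, per the file headers. The authors' deposited value table holds intensity after background subtraction, so local background was taken as the difference between foreground and that table, and a fit on that table repeats plain subtraction. Slides were scanned group after group. In R 4.3.3 with limma 3.58.1, spots were corrected by normexp with an added offset of 50, which compresses dim probes. They were then taken to log2, averaged over 3 spots, and quantile normalized over all named miRNA probes. lmFit had 1 mean per group over all 14 arrays, with eBayes, two-sided tests and Benjamini-Hochberg adjustment over 343 mouse probes at 0.05. The scripts were tested on simulated data. An "at least" fold divides the brighter group's mean by a floor for the dimmer group, built per array from the lowest signal above blank spots or the probe's own value if that is larger. The use of the median of spots for the blank rule was chosen after seeing the data.

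Named miRNAs are those past the threshold, then, among probes above blank spots on at least 3 KO arrays with groups that do not overlap, up to 10 highest and 10 lowest, a fixed set, and up to 4 per list. miR-34b, miR-34c, miR-449, miR-181a and miR-181b were added as relatives or markers. The members and lists were chosen with earlier results of these data known. Alternatives changed normalization, background, filter, spot summary, arrays, eBayes options, replicate block and slide.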

Additional observations from a re-analysis of the deposited data

Results flagged for a closer look

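Of 59 named miRNAs, 2 had a nematode KO array far from the other 3 of its group, where chance flags about 1 in 20 groups. miR-125b was at 6.47 on nematode KO replicate 1, against 6.68 to 6.70 on the others. miR-10a was at 6.52 on nematode KO replicate 2, against 6.80 to 6.84 on the others. In 2 miRNAs the elicitation effect differed between the genotypes in the limma interaction test. The value for miR-34a was -1.02 and that for miR-422b was -1.82 (knockout minus wild type effect, log2 scale, adjusted p = 0.0224 for each).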

How the results depend on the processing

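The calls of miR-34a and miR-150 held in every alternative run, the removal of any 1 array included, while their log2 fold changes ran from -2.70 to -1.20 and from 0.93 to 2.11. The -2.70 and the 2.11 came from plain subtraction and the value table. The call of miR-222 held in all except with no background correction (adjusted p = 0.0507). The count of 5 calls was 10 with cyclic loess, 8 with no normalization, 3 with no background correction and 11 on the 7 KO arrays alone, and 3 to 8 when 1 array was removed. The count of 2 interaction calls was 4 with median scaling and with no normalization, 1 with trend and robust eBayes, 0 with plain subtraction, with the authors' deposited value table (the same calculation) and with no background correction, and 0 to 7 with an array left out. In those 3 settings with 0 calls, miR-34a kept its sign (-1.68, -1.68 and -0.92). The mean of spots in place of the median for the blank rule, chosen after seeing the data, passed 141 probes and gave 4 KO and 2 interaction calls. With the replicate block 4 calls were left, without miR-551b (adjusted p = 0.148). Deviations of same-numbered KO arrays correlated at -0.05, -0.04 and -0.17, and those of differently numbered arrays at -0.21 to 0.23. These values show no pairing by number, but so few arrays cannot exclude one.

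Signs turned for 8 miRNAs that did not pass. miR-422b was -0.11 with the replicate block and -0.12 to 0.16 with an array left out. miR-378 ran from -0.20 to 0.049 with an array left out. miR-142-3p was -0.48 with median scaling, -0.34 with cyclic loess, -0.50 with no normalization and -0.11 with the median of spots, and -0.30 to 0.26 with an array left out. miR-142-5p was 0.094 with quantiles over mouse probes only, and -0.39 to 0.74 with an array left out. miR-30e ran from -0.31 to 0.14. miR-125a was -0.028 with no background correction and -0.058 to 0.17 with an array left out. miR-10a was 0.12 with median scaling, 0.10 with cyclic loess and with no normalization, 0.091 with quantiles over mouse probes only, 0.013 with an offset of 20, 0.041 with plain subtraction and the value table, 0.0085 with no background correction, 0.084 with the median over spots and 0.0031 with the replicate block, and -0.077 to 0.067 with an array left out. miR-203 was -0.0052 with an offset of 20, -0.036 with plain subtraction and the value table and -0.0032 with the median of spots, and -0.12 to 0.13 with an array left out. The cause of these shifts was not tested. Signal over background limited the fold changes that could be read, since 216 of 343 probes did not stand above blank spots on at least 3 KO arrays.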
